A study of Rattus norvegicus with 6 samples.

Results

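The genes described here encode the nuclear part of the oxidative phosphorylation machinery. They are the rows outside the mitochondrial genome whose symbol starts as a subunit of NADH dehydrogenase (Nduf followed by a, b, c, s or v and a number), succinate dehydrogenase (Sdha to Sdhd), the cytochrome bc1 complex (Uqcr), cytochrome c oxidase (Cox4 to Cox8) or ATP synthase (Atp5). This choice by name took 83 of the 32662 genes in the table, under 81 distinct symbols, and the rule uses no measured value, though it was set with earlier results of these data known. By complex there were 35 members in complex I, 4 in complex II, 9 in complex III, 19 in complex IV and 16 in complex V. Ndufa4, a gene named for complex I whose product is now placed with cytochrome c oxidase, and Cox7a2l, a factor of respiratory supercomplexes, were counted with complex IV.

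RNA was measured by sequencing in primary oligodendrocyte precursor cells, the dividing glia that mature into myelin-forming oligodendrocytes. The source was cerebral cortex of Sprague-Dawley rats, from pups aged 1 to 2 days. Mixed glia were first grown with 20% fetal bovine serum, and the non-adherent cells were then kept for 4 to 5 days in Neurobasal medium with 2% B27, PDGF at 10 ng/ml and FGF at 10 ng/ml. The control group of 3 libraries and the fibril group of 3 libraries shared this culture, and the fibril group was also exposed for 72 h to fibrils preformed from human alpha-synuclein, which aggregates in multiple system atrophy and Parkinson's disease. Whether the 3 libraries of a group stem from different cultures or animals is not stated, so a p-value here refers to the spread among these libraries only, which may be technical. No genetic change is named for either group. The levels are FPKM, a fragment count scaled for gene length and for the mapped total of the library.

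Complexes I to IV form the electron transport chain of the inner mitochondrial membrane. Complex I takes electrons from NADH and complex II takes them from succinate; both pass them through ubiquinone to complex III, cytochrome c and complex IV, which hands them to oxygen. Complexes I, III and IV pump protons as they do so, and complex V, the ATP synthase, lets the protons back in to make ATP. All of complex II and most subunits of the other complexes are encoded in the nucleus and imported, while mitochondrial DNA encodes a few core subunits of complexes I, III, IV and V. Cells of the oligodendrocyte lineage draw on this supply when they build myelin membrane.

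Promoter sequence was available from RefSeq (build GRCr8) for 71 of the 81 symbols, as windows of 250 bases before and 50 bases after the start of the gene. Published work on these genes names the factors NRF1, YY1 and the ETS family, so their core motifs were searched on both strands and compared with the windows of 18928 other protein-coding genes. The ETS motif CCGGAAG was present in 20 members, 28.2% against 11.2% of the other genes. The YY1 motif AAGATGGC was present in 14 members, 19.7% against 3.86%. The NRF1 motif, searched as GCGCA and GCGC with 1 base of any kind between them, was present in 12 members, 16.9% against 6.04%. None of those 12 was among the 16 windows of complex IV. Those 16 included Cox6a2, Cox7a1, Cox7b2, Cox8b and Cox8c, which were listed at 0 FPKM in all libraries. They lacked the abundant Cox6a1 and Cox6c. The SP1 motif GGGCGG, at 42.3% against 43.1%, and CCAAT, at 35.2% against 38.4%, were about as common in members as elsewhere, and TATAAA was found in 7.04% against 13.1%. The motif TCAAGGTCA of the estrogen-related receptors was present in 2 members, 2.82% against 0.343%. Median GC content was 56% in members and 55.3% in the others. These are letter matches in one window and do not show that a factor binds. For illustration 3 promoters are printed over the 250 bases before the start, 5′ to 3′ on the gene's strand, with matches to the searched motifs in capitals. Atp5i (Atp5me in RefSeq; chr14:1464610-1464859, plus strand), a membrane subunit of ATP synthase, holds matches on either strand to the YY1, NRF1, SP1 and ETS motifs, in that order. Uqcrq (chr10:38089979-38090228, minus strand) had the largest and Ndufs1 (chr9:72073606-72073855, minus strand) the smallest difference among members in the replicate 3 libraries described below, and each holds 1 ETS match.
Atp5i: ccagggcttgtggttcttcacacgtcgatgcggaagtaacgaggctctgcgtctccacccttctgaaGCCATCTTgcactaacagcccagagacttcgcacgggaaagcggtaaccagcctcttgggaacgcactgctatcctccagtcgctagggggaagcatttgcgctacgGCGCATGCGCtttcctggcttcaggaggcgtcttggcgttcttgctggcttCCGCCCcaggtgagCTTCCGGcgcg
Uqcrq: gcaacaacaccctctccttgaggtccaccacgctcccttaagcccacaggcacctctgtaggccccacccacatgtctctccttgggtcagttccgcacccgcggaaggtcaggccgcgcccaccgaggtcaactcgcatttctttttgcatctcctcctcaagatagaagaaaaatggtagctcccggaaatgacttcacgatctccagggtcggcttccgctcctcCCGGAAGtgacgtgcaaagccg
Ndufs1: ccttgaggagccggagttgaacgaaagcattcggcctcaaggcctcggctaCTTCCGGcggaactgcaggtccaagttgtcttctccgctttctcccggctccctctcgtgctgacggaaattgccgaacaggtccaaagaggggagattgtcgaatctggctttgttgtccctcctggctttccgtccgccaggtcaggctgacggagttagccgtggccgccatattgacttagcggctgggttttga

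The libraries differed strongly in ways that touch every value below. Genes above 0 FPKM numbered 11518 to 14219 per library. Mitochondrially encoded genes took 80.3% of the summed FPKM in control replicate 1 and 75.6% in fibril replicate 1, against 12.0% to 40.1% in the other 4 libraries. The table holds no counts, so the depth behind a value is unknown. From the steps between low values, 1 fragment was worth 4.03 times as many FPKM in control replicate 1 and 6.92 times as many in fibril replicate 1 as in control replicate 2, so these were the shallowest libraries; the factor was 0.824 in control replicate 3 and 1.95 in fibril replicate 3. After removal of group means, libraries with the same replicate number correlated across genes at 0.747, 0.364 and 0.216 for replicates 1, 2 and 3, and the same-numbered libraries were also compared as pairs. Crossed numbers correlated higher in replicates 2 and 3, at 0.500 for control replicate 3 with fibril replicate 2 and 0.433 for control replicate 2 with fibril replicate 3, so the numbers set replicate 1 apart more than they tell replicates 2 and 3 from each other.

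Of the 83 members, 73 reached 1 FPKM in at least 3 libraries and were tested among 10766 genes. Most were abundant: 51 of the 73 had a mean of at least 100 FPKM over all libraries, and 5 had a mean under 20 FPKM. All 83 members together made up 5.63%, 3.76% and 2.64% of the summed FPKM of nuclear genes in control replicates 1, 2 and 3. In fibril replicates 1, 2 and 3 the shares were 6.70%, 3.82% and 5.28%. Each fibril library was thus above the control library of the same number, by little in replicate 2, but the groups overlapped. The median member stood at 118, 128 and 75.0 FPKM in the controls and at 171, 120 and 263 FPKM in the fibril libraries. Fibril replicate 3 was the highest library for 49 members and fibril replicate 1 for 18, while control replicate 3 was the lowest for 47 and control replicate 1 for 20.

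**Figure D1:**
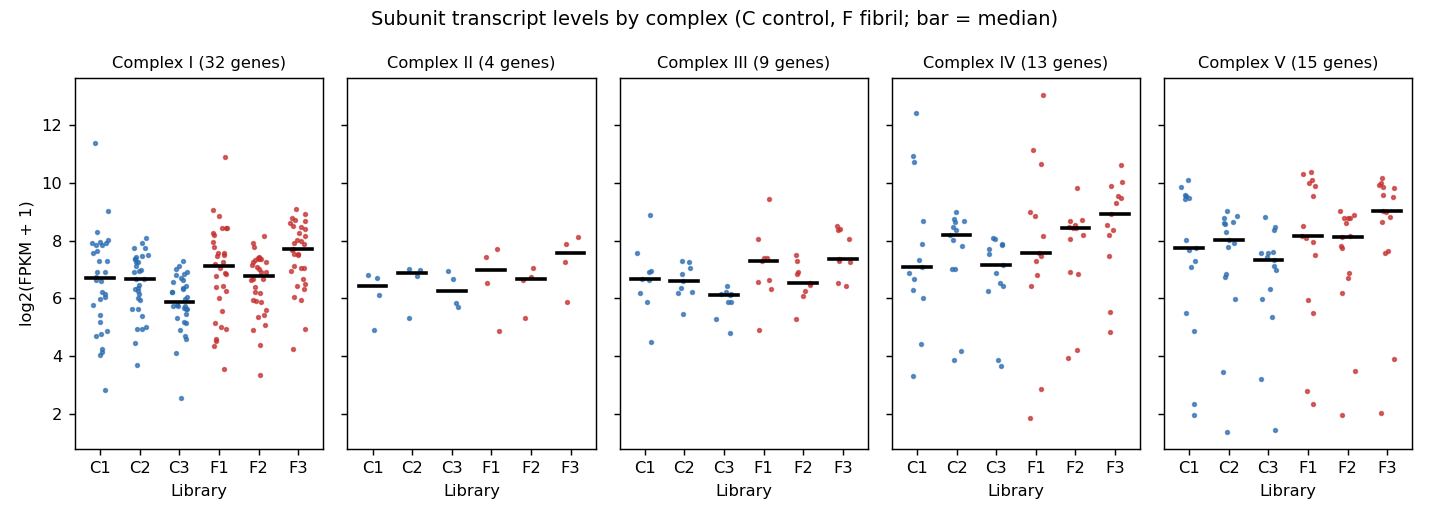
Levels of the 73 tested subunit genes as log2(FPKM + 1) in each of the 6 libraries, 1 panel per complex; points are genes and bars are medians over genes. In each complex the median of fibril replicate 3 lies above that of control replicate 3, and the 2 replicate 1 libraries hold a few genes far above the rest, most of all in complex IV.

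Transcripts of the subunits were on the whole higher in the fibril libraries, by a median of 0.71 on the log2(FPKM + 1) scale, but no single gene passed the test. The difference between group means was positive for 71 of 73 members, 97.3%, where 47% of all genes tested were positive and the median over all genes was -0.04. In limma with Benjamini-Hochberg adjustment over all genes, 0 of 73 members passed an adjusted p of 0.05 in either direction, as did 0% of all genes, and the smallest adjusted p of a member was 0.96. At an unadjusted p under 0.05 there was 1 member, Ndufa7, where 4.02% of all genes lay below that value. With the replicate number as a block, 0 members passed again, against 0.111% of all genes (12, all higher); the smallest adjusted p of a member was then 0.481, and 5 members, Ndufa7, Ndufc1, Ndufs5, Cox6c and Atp5e, had an unadjusted p under 0.05, where 9.84% of all genes did. All 3 fibril values lay above all 3 control values for 9 members, 12.3% of those tested against 4.24% of all genes, and below them for 0 members against 5.3% of all genes. With 3 libraries per group, an exact permutation test has 0.1 as its smallest possible p.

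The size of the difference depended on which libraries were compared, here by replicate number. No label states that same-numbered libraries belong together, and crossed numbers correlated higher in replicates 2 and 3, as given above. Set crosswise, the median member was at 75.0 FPKM in control replicate 3 and 120 FPKM in fibril replicate 2. Control replicate 2 stood at 128 FPKM and fibril replicate 3 at 263 FPKM. Below, a fibril library's own control is the control of the same number. Within replicate 1 the median member differed by 0.41, and 61 of 73 members were higher in the fibril library, where 50.2% of all genes were. In the replicate 2 libraries the median was -0.0045, with 36 members higher against 45.5% of all genes. Between the replicate 3 libraries it was 1.71, and 72 members were higher against 48.6% of all genes. As ratios of FPKM, the median member stood at 1.33, 0.997 and 3.31 times its control in replicates 1, 2 and 3, and the number of members at least 2-fold higher was 2, 0 and 65. The difference was larger in replicate 3 than in both other pairs for 72 of 73 members, 98.6%, where 40.2% of all genes were so. It was positive in all 3 pairs for 31 members, 42.5% against 16.9% of all genes. Among 1299 other nuclear genes with a mean of at least 50 FPKM, 443 were positive in all 3 pairs.

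**Figure D2:**
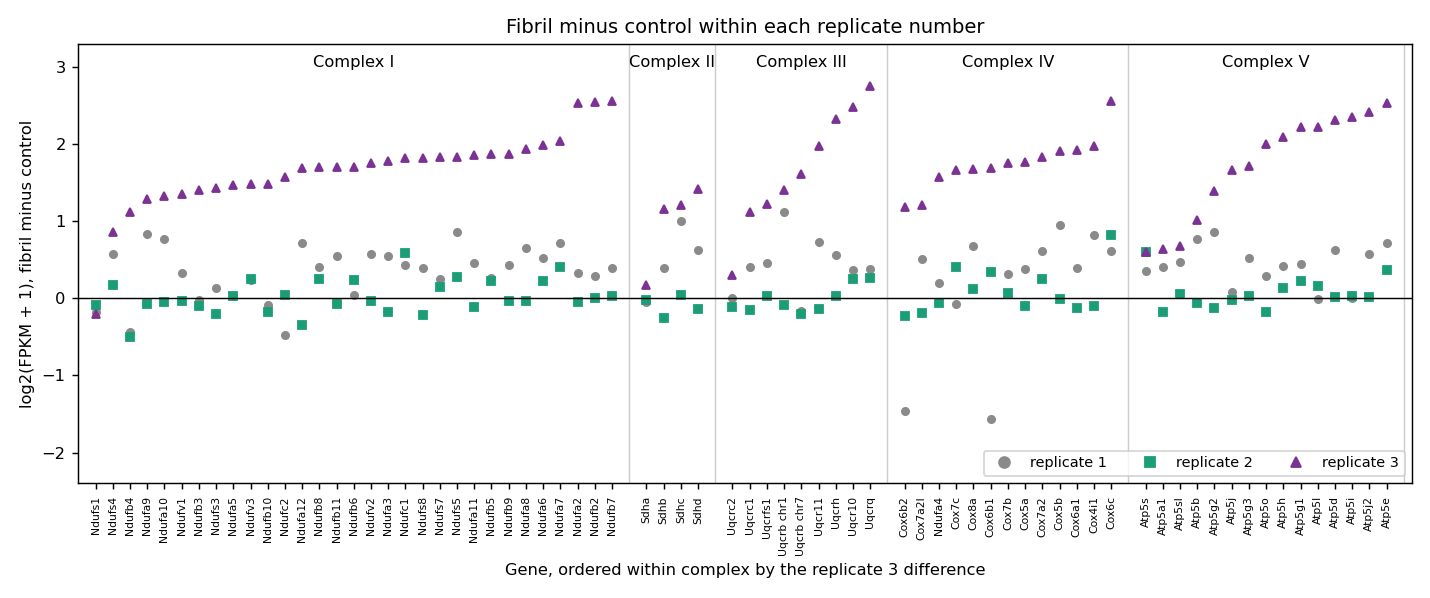
Fibril minus control difference in log2(FPKM + 1) for 72 of the 73 tested members within replicates 1, 2 and 3, ordered within each complex by the replicate 3 value. Replicate 3 points run from -0.20 to 2.76 and lie above the replicate 2 points, which centre on 0, for all members drawn but Ndufs1.

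Other measures moved between the same libraries. From control replicate 3 to fibril replicate 3 the mitochondrially encoded share went from 21.2% to 12.0% of all FPKM. Summed levels of 9 markers of maturing oligodendrocytes ran from 324 to 811 FPKM in controls and from 2164 to 4007 FPKM with fibrils. All 8 tested markers were positive, where 47% of all genes were. Of these markers 6 lay without overlap above the controls, against 4.24% of all genes, and 3 passed the test with the block, against 0.111%. The 8 precursor markers summed to between 1521 and 2493 FPKM in controls and between 1242 and 1468 FPKM with fibrils. Astrocyte markers (8 genes) summed to 107 to 112 FPKM in controls and 33.2 to 79.9 FPKM with fibrils, neuronal markers (8 genes) to 275 to 605 and 113 to 399 FPKM, and microglial and macrophage markers (10 of 11 in the table) to 1.50 to 45.6 and 11.9 to 61.3 FPKM. Of the tested genes in these lists, 2 of 8 precursor markers, 1 of 7 astrocyte markers, 0 of 8 neuronal markers and 5 of 7 microglial markers had a positive difference, and 0 in these 4 lists passed the test. No marker of these lists was at 0 in all libraries. Fibroblast and endothelial markers (8 of 9 in the table) summed to at most 0.308 FPKM in any library, and Col1a2, Lum and Cldn5 were listed at 0 in all. Abundant genes in general shared part of the pattern: of 1299 other nuclear genes with a mean of at least 50 FPKM, 76.1% were positive, 6.62% lay without overlap above the controls and 72.7% were largest in replicate 3, with median differences of 0.14, 0.03 and 0.85 in replicates 1, 2 and 3. The part of cell composition, maturation, library scaling and abundance in the subunit values was not tested, and in bulk RNA fewer cells of a type and less RNA per cell cannot be told apart.

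Complex I showed the same picture across its many small subunits. Of 35 members 32 were tested, 31 were positive and the median difference was 0.70. In 6 of them all fibril values lay above all control values, where 4.24% of all genes did so. The 7 nuclear catalytic core subunits, which hold the flavin and iron-sulfur centres, had a median difference of 0.55, with 6 positive. The 25 tested accessory subunits, which surround the core and are needed for its assembly and stability, had a median of 0.73, with all 25 positive. In the replicate 3 pair the medians were 1.43 for the core and 1.71 for the accessory subunits. The difference between the 2 classes was not tested.

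Ndufa7, an accessory subunit of the matrix arm, had the smallest unadjusted p of any member. Its level was 70.9, 76.0 and 48.6 FPKM in control replicates 1, 2 and 3 and 117, 102 and 204 FPKM in fibril replicates 1, 2 and 3. All fibril libraries were higher, and each exceeded its own control. The means were 65.2 ± 14.6 and 141 ± 55.2 FPKM (SD, n = 3 each), and the log2 difference was 1.06 (SE 0.44; limma, unadjusted p = 0.0418, adjusted p = 0.96; with the block 0.0261 and 0.481). Ndufc1, a small membrane subunit, stood at 25.3, 31.6 and 16.4 FPKM without fibrils and 34.6, 47.8 and 60.3 FPKM after fibril exposure. It was the member with the largest difference in complex I between the replicate 2 libraries, 0.58, and its overall log2 difference was 0.95 (SE 0.42; limma adjusted p = 0.96). Ndufs5, an accessory subunit on the intermembrane side, stood at 190, 137 and 64.9 FPKM in the control group and 346, 167 and 234 FPKM in the fibril group. The groups overlapped, since control replicate 1 exceeded fibril replicate 2, and the difference was 0.99 (SE 0.54; limma adjusted p = 0.96).

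Other members of complex I without overlap differed by less. Ndufb5 measured 95.0, 86.6 and 49.8 FPKM without fibrils and 115, 101 and 184 FPKM after fibril exposure. Ndufb8 measured 228, 241 and 128 FPKM against 303, 286 and 419 FPKM. Both are accessory subunits of the membrane arm, and in both the gap between the highest control and the lowest fibril library was small. Ndufv3, an accessory subunit near the NADH-binding flavoprotein, went from 53.6, 49.0 and 43.1 FPKM to 63.6, 58.6 and 122 FPKM. The log2 differences were 0.79 (Ndufb5), 0.79 (Ndufb8) and 0.66 (Ndufv3), with fibril replicate 3 the highest library for all 3.

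**Figure D3:**
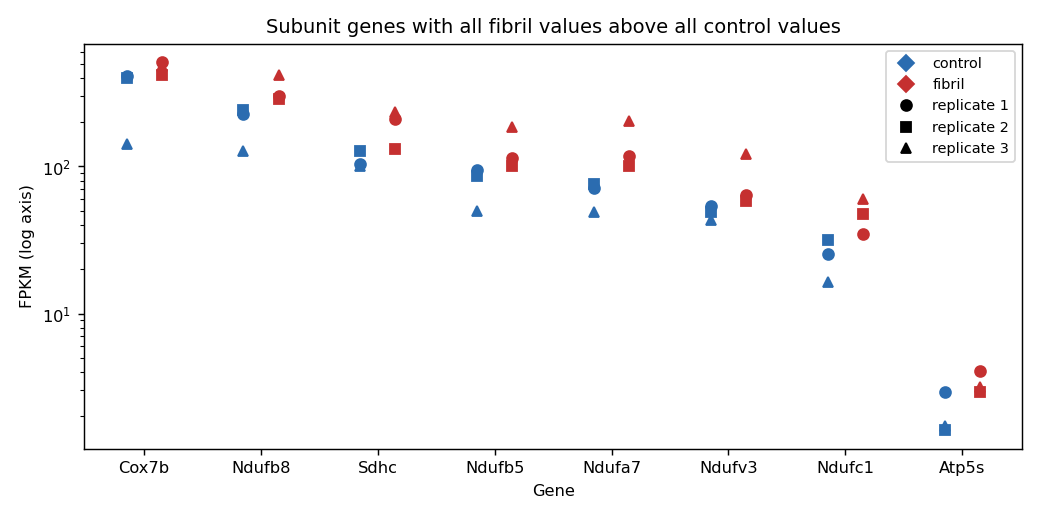
FPKM (log axis) of 8 of the 9 members whose 3 fibril values (red) all lie above their 3 control values (blue), with the replicate number as the symbol. Fibril replicate 3 is the highest library in 6 of these 8, and the gap between the groups is narrow for Atp5s, Cox7b and Sdhc.

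Ndufs1, the large core subunit that carries several iron-sulfur centres, was the exception in complex I; it and the other exceptions in this paragraph were picked out after their values were seen. Its level was 26.4, 21.1 and 34.4 FPKM in the control group and 23.3, 19.9 and 29.8 FPKM in the fibril group. Each fibril library lay below its own control, by 0.08 to 0.20 on the log2 scale, and the overall difference was -0.15 (SE 0.38). Ndufb4, a membrane-arm accessory subunit, was lower with fibrils in replicates 1 (244 against 179 FPKM) and 2 (213 against 151 FPKM) and higher in replicate 3 (119 against 259 FPKM). At the ends of the range of levels, Ndufa12, the least abundant tested member of complex I, measured 6.16, 12.0 and 4.91 FPKM without fibrils and 10.8, 9.21 and 18.1 FPKM after fibril exposure. Ndufc2 was the most abundant through replicate 1 alone, with 2635 and 1896 FPKM there against 113 to 338 FPKM in the other libraries.

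Complex II, which also belongs to the citric acid cycle, had all 4 members tested and positive, with a median of 0.53 and a replicate 3 median of 1.18. Sdha, the flavoprotein that oxidizes succinate, measured 29.0, 39.2 and 50.9 FPKM in the control group and 28.1, 38.6 and 57.8 FPKM in the fibril group, nearly the same in each pair, and its log2 difference was 0.04 (SE 0.43). Sdhb, the iron-sulfur subunit, measured 68.6, 126 and 124 FPKM against 90.6, 105 and 276 FPKM, higher with fibrils in replicates 1 and 3 and lower in replicate 2. Sdhc and Sdhd are the membrane anchors. Sdhc measured 104, 128 and 101 FPKM without fibrils and 210, 132 and 236 FPKM after fibril exposure, without overlap and with little difference in replicate 2 (log2 difference 0.75, SE 0.43; limma adjusted p = 0.96). Sdhd measured 111, 108 and 56.2 FPKM against 171, 98.6 and 151 FPKM, with overlap.

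Complex III had 9 members, all tested and all positive, with a median of 0.82 and 0 members without overlap. The core proteins were near the bottom of the complex: Uqcrc2, named after its values were seen, differed by 0.06 and measured 73.9 to 97.5 FPKM in controls and 75.3 to 97.6 FPKM with fibrils. Uqcrc1, the least abundant, measured 21.6, 74.5 and 69.7 FPKM in the control group and 29.1, 66.8 and 153 FPKM in the fibril group, so its replicate 1 values lay far below the rest in both groups. The small accessory subunits (6 rows) had a median of 0.91 and a replicate 3 median of 2.15, where the 2 core proteins had 0.26 and 0.71.

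Uqcrq, the small ubiquinone-binding subunit, had the largest ratio of any member in replicate 3, at 6.92. It measured 118, 72.4 and 38.0 FPKM without fibrils and 155, 87.5 and 263 FPKM after fibril exposure. Each pair was higher with fibrils, but control replicate 1 exceeded fibril replicate 2, and the log2 difference was 1.14 (SE 0.58; limma unadjusted p = 0.0813, adjusted p = 0.96). Uqcr10 measured 71.9, 151 and 57.7 FPKM against 93.2, 179 and 328 FPKM, and Uqcr11 102, 131 and 84.7 FPKM against 169, 119 and 336 FPKM. Both are small membrane-spanning subunits, with log2 differences of 1.04 and 0.86. Uqcrh, the hinge protein that helps cytochrome c dock, was the most abundant member of the complex, at 468, 154 and 70.6 FPKM in the control group and 690, 157 and 359 FPKM in the fibril group. Uqcrb has 2 rows, on chromosomes 1 and 7 of the deposited table, with differences of 0.82 and 0.42; since they may be near-identical copies, how fragments were split between them is uncertain.

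Complex IV had 13 of 19 members tested, 12 of them positive, with a median of 0.71, a replicate 3 median of 1.76 and 1 member without overlap. That member, Cox7b, measured 411, 399 and 142 FPKM without fibrils and 510, 420 and 481 FPKM after fibril exposure. The gap between the highest control and the lowest fibril library was narrow, and control replicate 3 lay far below the rest (log2 difference 0.71, SE 0.57). Cox5b, the zinc-binding subunit, had the smallest unadjusted p of the complex, 0.102, and measured 235, 290 and 187 FPKM in the control group and 456, 289 and 703 FPKM in the fibril group. Its replicate 2 libraries were nearly equal, so the groups overlapped at that pair.

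Cox6c had the highest mean of all members, carried by replicate 1, and the largest log2 difference, 1.33, together with a large SE, 1.25. It measured 5432, 513 and 266 FPKM without fibrils and 8337, 904 and 1568 FPKM after fibril exposure. Each fibril library exceeded its own control, by 0.62, 0.82 and 2.56, while the replicate 1 libraries of both groups stood far above all others (with the block, limma unadjusted p = 0.0367 and adjusted p = 0.497).

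Several subunits of complex IV have isoform genes, in which a form that most tissues use is paired with one best known from muscle, lung or testis. Cox4i1, the widespread form of subunit 4, measured 160, 433 and 237 FPKM in the control group and 283, 406 and 936 FPKM in the fibril group, while Cox4i2, best known from lung, was listed at 0 in 5 libraries and at 0.149 FPKM in control replicate 2. Cox6a1 measured 64.0, 407 and 273 FPKM against 84.3, 372 and 1042 FPKM. Cox7a2 measured 101, 222 and 91.6 FPKM against 155, 264 and 330 FPKM. These were present in all libraries with overlap between the groups. Cox8a measured 118, 329 and 230 FPKM against 190, 357 and 742 FPKM. The partner forms Cox6a2, Cox7a1, Cox7b2, Cox8b and Cox8c were listed at 0 in all 6 libraries. At these subunits the rows above 1 FPKM were the widespread forms in both groups.

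Subunit 6b was the exception, with both isoform rows detected at low levels. Cox6b1 measured 20.5, 13.7 and 13.4 FPKM without fibrils and 6.26, 17.7 and 45.7 FPKM after fibril exposure. Cox6b2, best known from testis, measured 8.96, 17.0 and 11.5 FPKM in the control group and 2.63, 14.4 and 27.4 FPKM in the fibril group. Both rows were lower with fibrils in replicate 1 and higher in replicate 3, and their overall log2 differences were 0.16 (SE 0.64) and -0.17 (SE 0.70). Cox6b2 made up 30.4%, 55.4% and 46.2% of their sum in controls and 29.6%, 44.9% and 37.5% with fibrils, so each fibril library was below its own control. The Cox6b1 row spans only 262 bases on chromosome 2 of the table, and whether it holds all of that gene's fragments is uncertain.

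Complex V had 15 of 16 members tested and all positive, with a median of 0.76, and the highest replicate 3 median of the 5 complexes, 2.01. These counts include 2 genes taken by name that are not structural subunits, Atp5s and Atp5sl, with a median of 0.46. The 4 genes of the F1 part, where ATP is made, had a median of 0.78. Of these, Atp5a1 and Atp5b of the catalytic head differed by 0.29 and 0.57. Atp5d and Atp5e of the central stalk differed by 0.99 and 1.20. The rotating c-ring had a median of 0.76 over 3 genes, and the other stalk and membrane subunits 0.79 over 6 genes. Atp5e, the small epsilon subunit of F1, had the highest mean of the complex over all libraries but led it only in fibril replicates 2 and 3. It measured 765, 403 and 196 FPKM without fibrils and 1258, 519 and 1135 FPKM after fibril exposure. It was higher in each pair, by 0.72, 0.36 and 2.53, but control replicate 1 exceeded fibril replicate 2 (log2 difference 1.20, SE 0.68; limma adjusted p = 0.96, and 0.497 with the block). Atp5j2, a subunit of the membrane sector, measured 686, 435 and 190 FPKM against 1022, 442 and 1022 FPKM. Its replicate 2 libraries were nearly equal. By contrast Atp5a1, the alpha subunit of the head, named after its values were seen, had the smallest difference of the complex, 0.29, with 135, 312 and 329 FPKM in the control group and 179, 276 and 513 FPKM in the fibril group.

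The c-ring is encoded by 3 genes that give the same mature protein with different import signals. Atp5g1 measured 44.4, 61.3 and 39.5 FPKM without fibrils and 61.0, 72.1 and 188 FPKM after fibril exposure. Atp5g2 measured 157, 515 and 351 FPKM against 284, 473 and 921 FPKM, and Atp5g3 measured 913, 219 and 136 FPKM against 1316, 224 and 449 FPKM. The leading gene differed by replicate number: Atp5g3 made up 82.0% and 79.2% of the sum of the 3 genes in control and fibril replicate 1 and 25.9% to 29.1% in the other 4 libraries. Atp5g2 made up 14.1% and 17.1% in replicate 1 and 59.1% to 66.6% elsewhere. The share of Atp5g1 was 3.98%, 7.71% and 7.50% in controls and 3.67%, 9.37% and 12.1% with fibrils. Atp5s, which carries the name of the synthase but is not a structural subunit, was the least abundant tested member, at 2.93, 1.60 and 1.73 FPKM in the control group and 4.05, 2.95 and 3.15 FPKM in the fibril group. Its groups did not overlap, but only just, with control replicate 1 at 2.93 FPKM and fibril replicate 2 at 2.95 FPKM. Its difference was of like size in the 3 pairs, 0.36, 0.60 and 0.61 (log2 difference 0.52, SE 0.38, limma adjusted p = 0.96). At this low level the value depended on the pseudocount, at 0.71 with 0.1 and 0.24 with 5.

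Of the 10 members that were not tested, 6 were listed at 0 in all libraries: the 5 isoform genes of complex IV named above and 1 of the 2 Ndufa1 rows on chromosome X. The other Ndufa1 row stood at 2.97 FPKM in fibril replicate 1 and was listed at 0 elsewhere. Ndufa13 was listed at 1.68 FPKM in control replicate 1 and 0.953 FPKM in fibril replicate 3 and at 0 in the rest, on a row that spans only 430 bases. Atp5f1, the gene of the peripheral stalk subunit b, was listed at 1.50 FPKM in control replicate 1, 0.867 FPKM in fibril replicate 1 and 0 elsewhere. Ndufa1, Ndufa13 and Atp5f1 encode subunits that respiring cells generally need, so a 0 in this table can be a failed estimate and no fold was computed for these genes.

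The replicate 1 libraries held a different balance of subunits from all others. In control replicate 1 relative to control replicate 2, the ratio of FPKM ran from 0.157 for Cox6a1 to 12.5 for Ndufc2, with 12 members at least 2-fold higher and 13 at least 2-fold lower. The genes at 4 times or more in replicate 1 of both groups were Ndufb6, Ndufc2, the chromosome 7 row of Uqcrb, Cox6c, Cox7c, Ndufa4 and Atp5g3, and those at 0.5 times or less in both were Ndufv1, Uqcrc1, Cox6a1 and Atp5d; these were singled out after their values were seen. The 5 most abundant members took 52.0% and 49.2% of the summed member FPKM in control and fibril replicate 1 and 19.1% to 22.2% in the other libraries, and complex IV took 42.2% and 45.3% there and 25.8% to 30.7% elsewhere. Across the 73 members, Spearman's rho was 0.976 between the replicate 1 libraries 0.987 between the replicate 2 libraries and 0.916 between the replicate 3 libraries, where control replicate 2 was closer to fibril replicate 3, at 0.950; the lowest value was 0.682, between control replicates 1 and 3; this is a description across genes, which are not independent. These were also the 2 libraries with the highest mitochondrially encoded share and the shallowest depth; the part of either in the balance was not tested.

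**Figure D4:**
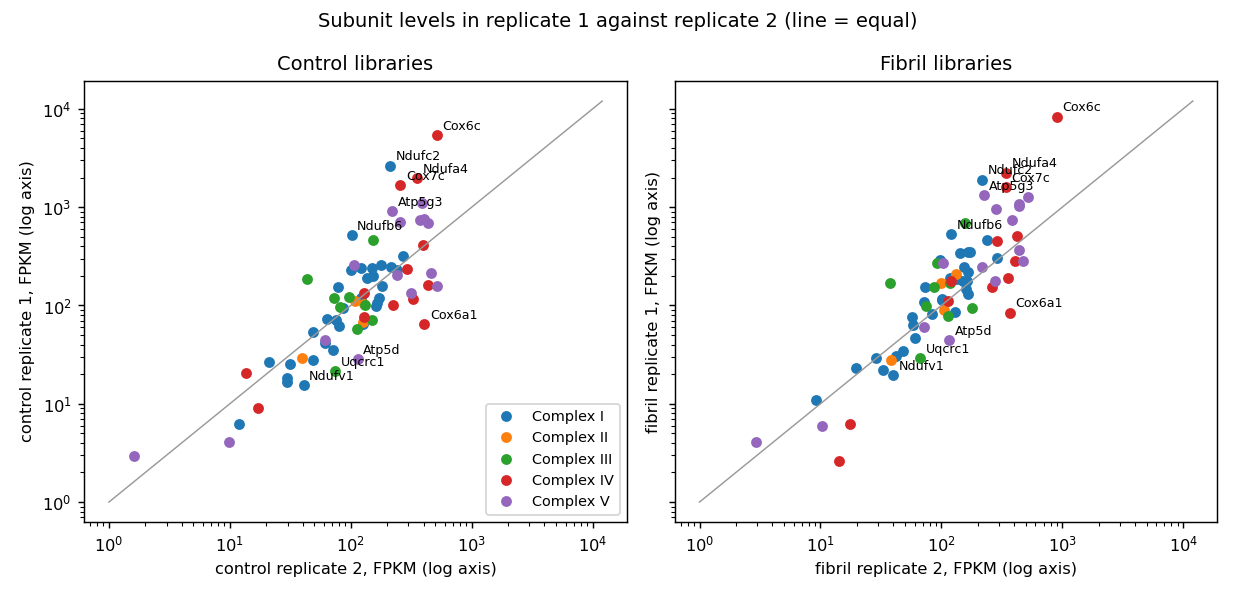
FPKM of the tested members in replicate 1 against replicate 2 (both axes logarithmic; line of equal values), in control libraries on the left and fibril libraries on the right, coloured by complex. Cox6c, Ndufc2, Ndufa4 and Cox7c lie far above the line and Cox6a1, Uqcrc1, Ndufv1 and Atp5d below it in both panels.

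The mitochondrially encoded partners had no direction common to all pairs. The 13 protein genes of the mitochondrial genome had a median log2 difference of 0.09, with 7 positive and 0 without overlap; limma called 0 of them, and 0 had an unadjusted p under 0.05. Within replicates 1, 2 and 3 their medians were -0.26, 0.31 and -0.02. In these pairs 2, 13 and 6 of the 13 were higher in the fibril library, against 50.2%, 45.5% and 48.6% of all genes. In the replicate 3 pair, the median level of the nuclear complex I subunits with fibrils was 3.57 times their median level in the control. For the 7 mitochondrial complex I genes this ratio of medians was 0.983. These genes diverged in this pair, with log2 differences from -2.77 for Mt-nd4l to 1.59 for Mt-nd3, and Mt-nd6 was the median gene in both libraries. The corresponding nuclear and mitochondrial ratios of medians were 2.35 and 0.922 for complex III, with 1 mitochondrial gene. They were 3.40 and 1.33 for complex IV, with 3. For complex V, with 2 mitochondrial genes, they were 3.20 and 0.613. These 2 genes went opposite ways in this pair. Mt-atp6 went from 8723 to 11258 FPKM and Mt-atp8 from 23678 to 8601 FPKM. The ratio of the mitochondrial to the nuclear median in complex I was 390, 47.6 and 36.0 in controls and 192, 53.3 and 9.92 with fibrils. It was lower with fibrils in replicates 1 and 3 and higher in replicate 2, and a ratio within a library does not depend on its scaling. How the library method captured mitochondrial transcripts was not tested.

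Genes that serve the same organelle were read from lists chosen with earlier results of these data known. Of 45 tested assembly factors, which build the complexes without staying in them, 34 were positive, with a median of 0.22 and 0 without overlap. The 13 tested genes of the citric acid cycle had a median of 0.17 with 9 positive, and the 11 of pyruvate entry 0.12 with 7 positive. Carriers of the inner and outer membrane had a median of 0.47 over 6 genes, all positive, and the import machinery 0.65 over 16 genes, 15 positive. Of all genes tested, 47% were positive, 4.24% lay without overlap above the controls and 4.02% had an unadjusted p under 0.05 in limma without the block. Limma called 0 genes in any of these lists, with or without the block, as for the members; at an unadjusted p under 0.05 without the block there were 0 assembly factors, 0 citric acid cycle genes, 0 pyruvate genes, 0 carriers and 1 import gene.

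Among single genes of these lists, those without overlap are named. Cycs, the gene of cytochrome c, which carries electrons from complex III to IV, measured 57.4, 49.4 and 38.4 FPKM without fibrils and 115, 60.7 and 89.6 FPKM after fibril exposure. Slc25a3, the phosphate carrier that feeds ATP synthase, measured 136, 135 and 120 FPKM against 174, 138 and 285 FPKM. Vdac1, a channel of the outer membrane, measured 91.3, 83.0 and 90.3 FPKM against 127, 96.9 and 147 FPKM. All 3 were higher in every fibril library. Of the import genes, Timm17a, a subunit of the inner-membrane channel, measured 29.6, 28.6 and 19.0 FPKM against 55.0, 41.7 and 82.2 FPKM (log2 difference 1.15, SE 0.42; limma unadjusted p = 0.0224, adjusted p = 0.96). Tomm7 and Timm22, of the outer-membrane and carrier import machinery, differed by 1.09 and 0.80. Tomm70, an import receptor named after its values were seen, went the other way, from 22.8, 19.1 and 21.5 FPKM to 10.9, 18.0 and 9.45 FPKM.

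Ppargc1a, the coactivator known for driving mitochondrial gene programmes, was lower in every fibril library than in any control, as were 5.3% of all genes. It measured 5.05, 2.90 and 6.13 FPKM in the control group and 1.09, 2.16 and 0.508 FPKM in the fibril group, with a log2 difference of -1.36 (SE 0.44; limma unadjusted p = 0.0132, adjusted p = 0.96, and 0.438 with the block). The control and fibril values came closest in replicate 2, and the widest gap was in replicate 3. The subunit differences were also largest there, and a link between the 2 was not tested. The 15 tested regulators of mitochondrial biogenesis as a list had a median of 0.05 with 8 positive. Limma called 0 of them. Ppargc1a was the 1 gene of the 15 with an unadjusted p under 0.05 in limma, where 4.02% of all genes lay below that value. Pdp1, a phosphatase that activates pyruvate dehydrogenase, was lower too, from 9.87, 6.22 and 7.10 FPKM to 5.15, 5.03 and 4.22 FPKM. It was the 1 gene without overlap below the controls among 11 tested genes of pyruvate entry, against 5.3% of all genes.

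Glycolysis, the cytosolic route to ATP, also had its largest median in replicate 3. Its 15 tested genes had a median of 0.68. Of these, 11 were positive, against 47% of all genes, and 4 lay without overlap above the controls, against 4.24%. Medians within replicates 1, 2 and 3 were 0.15, 0.18 and 1.49. Limma called 0 of them, with 2 at an unadjusted p under 0.05, where 4.02% of all genes lay below that value. Ldha, which makes lactate, measured 72.4, 74.4 and 91.1 FPKM without fibrils and 181, 173 and 659 FPKM after fibril exposure. Each fibril library was well above every control, also in replicate 2 (log2 difference 1.79, SE 0.58; limma unadjusted p = 0.0137, adjusted p = 0.96, and 0.244 with the block). Pfkl measured 14.0, 7.72 and 14.8 FPKM against 23.0, 26.7 and 81.5 FPKM, and Pgk1 69.5, 65.0 and 63.9 FPKM against 106, 99.3 and 350 FPKM. These 2 enzymes, of the committed and the first ATP-yielding step, were likewise higher in each pair.

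**Figure D5:**
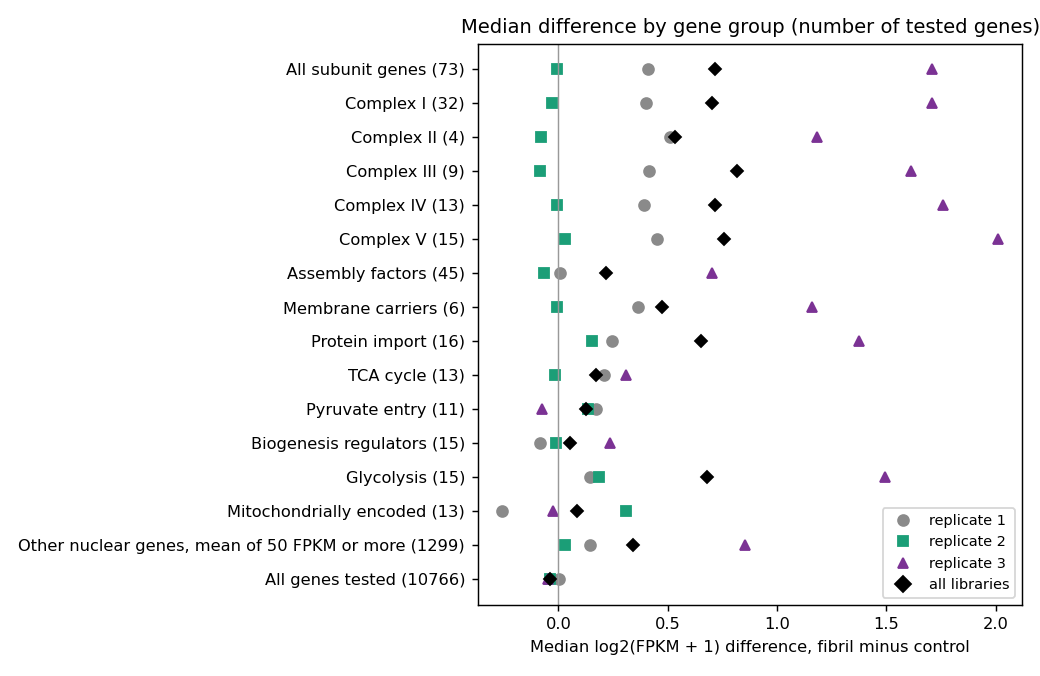
Median difference (log2(FPKM + 1), fibril minus control) over the tested genes of each group, for all libraries and within each replicate number. The replicate 3 medians of the 5 complexes lie between 1.18 and 2.01. Those of glycolysis lie at 1.49, of protein import at 1.38 and of membrane carriers at 1.16. Lower are other abundant genes at 0.85, assembly factors at 0.70, the citric acid cycle at 0.31, biogenesis regulators at 0.24 and pyruvate entry at -0.08. The replicate 2 medians of the complexes lie near 0.

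The subunit values changed in size with the scaling and with replicate 3. Scaled to equal totals without mitochondrially encoded genes, the median of all genes was -0.30 and that of the members 0.41, so members stood 0.71 above all genes, compared with 0.75 as deposited; 66 members stayed positive, against 27.7% of all genes. Members without overlap then numbered 3 higher (Ndufa7, Ndufs5 and Sdhc), against 2.5% of all genes, and 1 lower (Ndufs1), against 7.06%. Under quantile normalization the member median was 0.36, with that of all genes at 0, so the excess over all genes was smaller than as deposited, and 4 members lay without overlap above the controls (Ndufa7, Ndufs5, Ndufv3 and Sdhc), against 4.74% of all genes. Without fibril replicate 3 the member median was 0.43 with 62 positive against 44.5% of all genes, and without both replicate 3 libraries, with the block, it was 0.23 with 62 positive, where the median of all genes was -0.01. Members without overlap in all libraries stay so by construction when libraries are left out. In both cases the same 9 members lay without overlap above the controls, against 5.81% of all genes in the first and 8.59% in the second. With replicates 2 and 3 only, 36 members lay without overlap above the controls, against 18% of all genes.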

How the data were processed

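RNA-seq was measured in 3 control and 3 fibril libraries, grouped by their labels. The authors deposited 1 table of FPKM for 32662 genes, 1 column per library, per the file headers. Per the submitters' processing notes, Trimmomatic and FastQC were used; which aligner, quantifier and build is not given in the sources used here. FPKM are not counts, so no count model was run. Values were analysed as log2(FPKM + 1), which understates the change of low genes, over the 10766 genes that reached 1 FPKM in 3 or more libraries. Groups were compared with limma 3.58.1 in R 4.3.3 (mean-variance trend, two-sided, Benjamini-Hochberg over all genes, threshold 0.05), tested on simulated data. The same-numbered libraries correlated at 0.747, 0.364 and 0.216 after removal of group means, all above the limit of 0.1 set for pairing, so a blocked fit by replicate number was run as well (2 residual degrees of freedom, 4 without it); the crossed pairs of replicates 2 and 3 correlated higher, at 0.500 and 0.433. The worth of 1 fragment was estimated from low values with a tolerance of 0.03 on the log2 scale.

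Members and lists were chosen with earlier results of these data known. Named in each complex are the 3 genes with the smallest unadjusted p and the most and least abundant tested genes. Members without overlap, members listed at 0, isoform genes and c-ring genes are named as well. From other lists, up to 3 genes without overlap are named, and Tomm70 was added after its values were seen. The values of 1 member that enters the counts are not reported here. Promoter windows come from RefSeq GRCr8, which may differ from the table's build. The class of genes with a mean of at least 50 FPKM and the fits with the block that leave out a pair were chosen after the data were seen.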

Additional observations from a re-analysis of the deposited data

How the results depend on the processing

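The number of members called by limma was 0 in every setting tried (other pseudocounts and filters, quantile normalization, scaling without mitochondrially encoded genes, the replicate block, single libraries or pairs left out), with a smallest adjusted p of 0.106, under the replicate block without pair 2. The paired fit with the replicate block left every difference as it was, since both groups hold the same numbers, and kept the count of calls at 0. Member medians ranged from 0.43 to 0.95 when 1 library was left out, lowest without fibril replicate 3, and members without overlap above the controls from 9 to 28, where 5.81% to 11.4% of all genes did so. That number was 3 when scaled without mitochondrially encoded genes (with or without the replicate block), 4 under quantile normalization, 36 with replicates 2 and 3 only or under the block without pair 1 (18% of all genes), and 40 under the block without pair 2 (13.1%); fewer libraries overlap less often by construction. Below the controls there was 1, Ndufs1 when scaled without mitochondrially encoded genes (with or without the block) and Ndufb4 under the block without pair 3.

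Some named genes changed sign, and the cause was not tested. Scaled without mitochondrially encoded genes, with or without the block, Cox6b1 was at -0.13 and Sdha at -0.27; under quantile normalization Sdha was at -0.15. With replicates 2 and 3 only, or under the block without pair 1, Cox6b2 was at 0.48, and under the block without pair 3 Cox6b1 was at -0.61, Ndufc2 at -0.22 and Sdha at -0.035. With 1 library left out at a time, 7 genes changed sign in 1 or more fits: Cox6a1 ranged from -0.12 to 1.69, Cox6b1 from -0.51 to 0.83, Cox6b2 from -0.81 to 0.67, Ndufc2 from -0.55 to 1.74, Sdha from -0.23 to 0.28, Sdhb from -0.065 to 0.73 and Uqcrc1 from -0.13 to 1.05. The table gives no counts, so depth limits cannot be set per gene. The replicate 1 libraries were the shallowest, and the labels give no batch.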
